A study of Mus musculus with 11 samples.

Results

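The genes described here handle fatty acids in the endothelial cell (EC): *Fabp4* and *Fabp5*, *Gpihbp1*, *Lpl*, *Lipg*, *Angptl4*, *Pdk4*, *Plin2* and *Ucp2*. They were taken by symbol from the table of counts per gene, which lists all 9 of them among its 29307 genes. RNA had been sequenced from sorted liver sinusoidal ECs of 6 conventionally raised (CONV-R) and 5 germ-free (GF) mice, with 1 library per mouse. All mice were male C57BL/6J animals aged 10 to 12 weeks from the same colonies on the same autoclaved diet, and the groups differ in that GF mice were kept without microbes in isolators while CONV-R mice carried a specific-pathogen-free microbiota. The livers were dissociated, CD146+ cells were enriched on magnetic beads, and CD31+, CD105+ and CD146+ cells were sorted. The authors obtained fewer ECs and less RNA from GF livers, and amplified the cDNA of every library, so yield and microbial status cannot be told apart here.

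Triglyceride in the blood is carried in lipoproteins and must be hydrolysed before its fatty acids can leave the vessel. Lipoprotein lipase, made mostly by parenchymal cells, is bound by GPIHBP1 and held on the luminal face of capillary ECs, while angiopoietin-like proteins inactivate it. Fatty acids then cross the EC by way of CD36 and the cytosolic fatty acid binding proteins. Within cells they are stored in lipid droplets or oxidised, and they act on the peroxisome proliferator-activated receptors (PPARs), whose known targets include *Angptl4*, *Pdk4*, *Plin2* and *Fabp4*. The fenestrated sinusoid of the liver lets lipoprotein remnants pass to the hepatocytes.

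Library totals lay between 7922855 and 14669352 counts in CONV-R mice and between 7242717 and 16164588 in GF mice. Levels are given in CPM, the count of a gene relative to the library total scaled by TMM normalization. The markers of sinusoidal ECs were high in both groups, with all 13 tested and none called, and their summed level was 34415 to 43485 CPM in CONV-R and 34250 to 48539 CPM in GF libraries. The 10 hepatocyte markers summed to at most 72.0 CPM in any library, the 10 stellate cell markers to at most 30.4 CPM and the 5 adipocyte markers to at most 1.45 CPM. The 10 Kupffer cell markers summed to 86.0 to 222 CPM in CONV-R and 197 to 931 CPM in GF libraries, the highest in GF replicate 6. All 10 had a positive Log2FC and 7 were called higher in GF, or 3 without GF replicate 6. The highest of them was *Clec4f* with a mean of 105 CPM in GF and 35.9 CPM in CONV-R ECs, and the lowest was *C1qa* with 1.43 and 0.478 CPM. Of the tested markers of monocytes and neutrophils, 1 of 3 was called higher, or 0 without GF replicate 6, with sums of 18.7 to 58.5 CPM in CONV-R and 43.5 to 229 CPM in GF libraries. None of the 6 pan-endothelial and sorting markers was called. With DESeq2, 1 sinusoidal marker (*Clec1b*) was called higher in GF. Of the 14 tested markers of continuous capillary and large vessel ECs, 4 were called higher in GF and none lower, with summed levels of 1316 to 1714 CPM in CONV-R and 1532 to 1957 CPM in GF libraries. CONV-R replicate 3 stood apart on the second principal component of log2 CPM (15.8% of the variance), with a score of 48.1 against -17.6 to -6.01 for the other CONV-R libraries.

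Of the 9 genes, 8 had enough counts to be tested. In the quasi-likelihood test of edgeR, adjusted by the Benjamini-Hochberg method over all 12905 tested genes, 6 of them passed the threshold of 0.05 (*Fabp5*, *Gpihbp1*, *Lpl*, *Angptl4*, *Pdk4* and *Ucp2*), all higher in GF ECs, while *Fabp4* and *Plin2* were not called. Of all tested genes, 7.48% were called, 4.8% as higher and 2.67% as lower in GF. The median Log2FC was 0.93 over the 8 tested genes and -0.01 over all tested genes. The 9 genes were chosen with earlier results of these data known, so these values describe the set and do not test it. For 4 of the 8 the lowest GF value exceeded the highest CONV-R value, as was the case for 3.22% of all tested genes. *Angptl4*, which is among the 6 called genes and among these 4, passed the count filter through its counts in GF libraries. With at least 10 counts required in every library it was not tested. Then 5 of 7 genes were called higher, against 4.8% of all tested genes. Without CONV-R replicate 3 the number called was 7 (4.65% of all tested genes were then called higher), the addition being *Fabp4*, and without GF replicate 6 it was 6 (3.15%). On the authors' normalized log2 values limma called 4 of them higher, against 1.16% of all genes, and *Gpihbp1* and *Lpl* were not called. Of the 8 genes, *Fabp4* and *Lpl* moved most without 1 of these libraries. The Log2FC values without CONV-R replicate 3 were 0.67 for *Fabp4*, 0.96 for *Fabp5*, 0.71 for *Gpihbp1*, 2.08 for *Lpl*, 2.25 for *Angptl4*, 0.77 for *Pdk4*, 0.17 for *Plin2* and 1.06 for *Ucp2*. Without GF replicate 6 they were 0.42, 1.00, 0.72, 1.47, 2.62, 0.88, 0.22 and 1.16 in the same order. In bulk samples a higher level per cell and a larger share of cells that carry the RNA cannot be told apart.

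**Figure D1:**
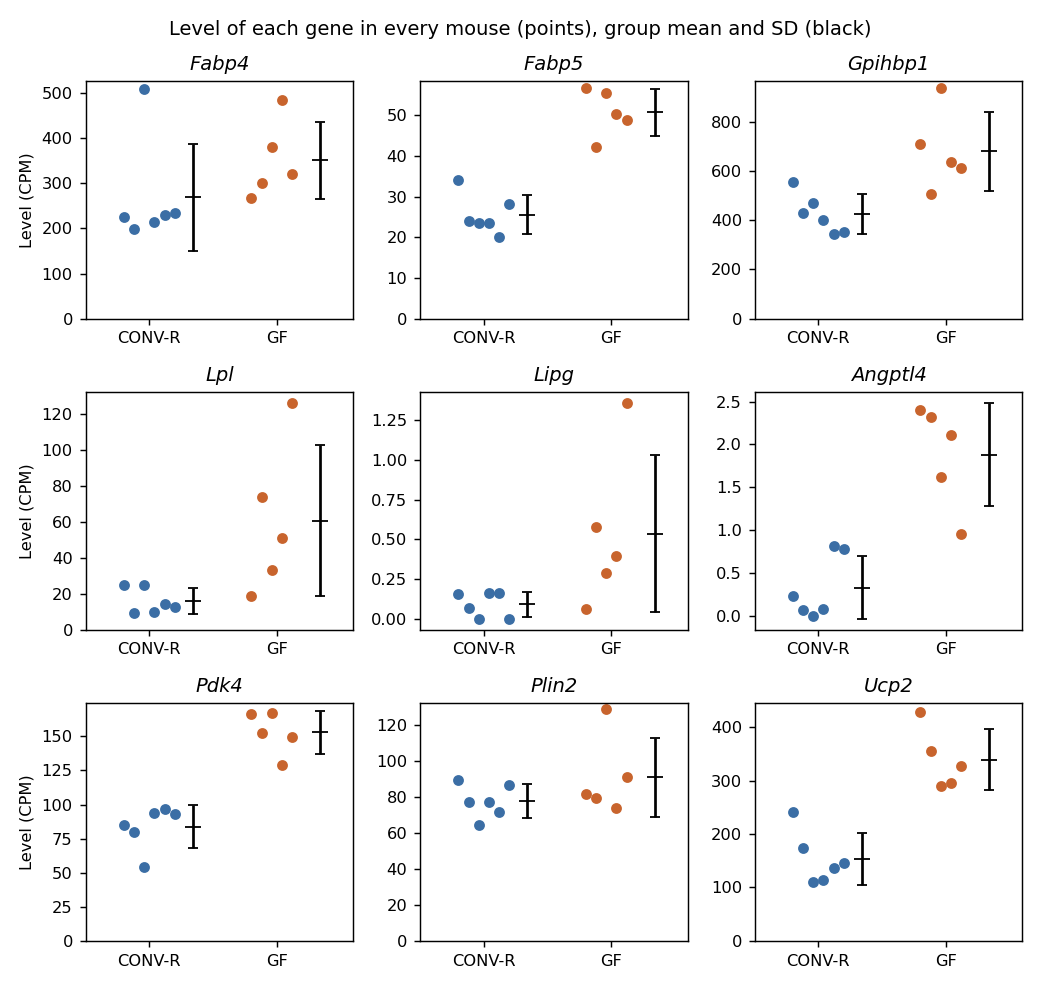
Level of the 9 genes in CPM (y axes, linear) in 6 CONV-R and 5 GF mice; each point is a mouse, and the black marks give the group mean and SD. The GF points lie above all CONV-R points for *Fabp5*, *Angptl4*, *Pdk4* and *Ucp2*, and 1 CONV-R mouse (replicate 3, 509 CPM) lies above all others for *Fabp4*.

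Both fatty acid binding proteins were detected in every mouse, and *Fabp5* rose while *Fabp4* did not pass the test. *Fabp5*, the epidermal type of cytosolic fatty acid carrier (chromosome 3 of GRCm38, 10012548 to 10016607, 4 exons in its coding transcript), had levels of 33.98, 24.1, 23.6, 23.6, 20.1 and 28.2 CPM in CONV-R replicates 1 to 6 and 56.6, 42.2, 55.5, 50.4 and 48.8 CPM in GF replicates 1, 2, 4, 5 and 6. The groups did not overlap, and the lowest GF mouse lay above the highest CONV-R mouse. The mean rose from 25.6 ± 4.84 CPM (SD, n = 6) to 50.7 ± 5.78 CPM (SD, n = 5), a Log2FC of 0.99 ± 0.15 (standard error, SE, adjusted p = 0.000527, edgeR's quasi-likelihood test). When single mice were left out the Log2FC stayed between 0.92 and 1.08. Of the 938 stretches of 50 bases (the read length) in the longest coding transcript of *Fabp5*, 21.1% also occur in another annotated gene, among them *Fabp5l2* and *Gm6166*. Of the 5 genes concerned, *Gm6166* is the member of the count table, with at most 0.762 CPM in a library, so *Fabp5* values carry this uncertainty.

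*Fabp4*, the adipocyte type of the same carriers and an abundant protein of continuous capillaries (chromosome 3, 10204088 to 10208576), had 224, 199, 509, 215, 231 and 234 CPM in CONV-R replicates 1 to 6 and 267, 302, 381, 484 and 321 CPM in the GF replicates in the order above. All CONV-R mice except replicate 3 lay below all GF mice, and replicate 3 lay above them. The mean was 269 ± 118 CPM (SD, n = 6) in CONV-R and 351 ± 85.0 CPM (SD, n = 5) in GF ECs. This gave a Log2FC of 0.39 ± 0.22 (SE) and was not called (adjusted p = 0.307, edgeR's quasi-likelihood test). Without CONV-R replicate 3 it was 0.67 with an adjusted p of 0.00655 by the same test, and *Fabp4* was called in none of the 10 other fits that leave out a mouse. The 2 libraries with the highest *Fabp4* were also those in which short genes stood highest against long ones. The median deviation of the 1141 tested genes under 1500 bases of exon, less that of the 5489 genes over 5000 bases, was 0.27 on the log2 scale in CONV-R replicate 3 and 0.22 in GF replicate 5, against -0.16 to 0.15 in the 9 other libraries. *Fabp4* has 4489 bases of merged exon and so is in neither class, while its coding transcript has 896 bases. *Fabp5*, with a coding transcript of 987 bases, had 23.6 CPM in CONV-R replicate 3 and 50.4 CPM in GF replicate 5. Both values lay within the range of the other mice of the group. The part of this shift in the *Fabp4* values was not tested. The 5 adipocyte markers (*Adipoq*, *Cfd*, *Retn*, *Lep* and *Adig*) were at or near 0 in every library.

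Within a library the count of *Fabp4* relative to *Fabp5* does not depend on the scaling between libraries. The log2 ratio was 3.33 ± 0.60 (SD, n = 6) in CONV-R and 2.77 ± 0.36 (SD, n = 5) in GF libraries, a difference of -0.56 (two-sided exact permutation test over all splits of the mice, p = 0.0931, adjusted 0.143 over the 3 ratios tested). The difference was thus not called with these numbers of mice. It had a p of 0.0397 without CONV-R replicate 1 and 0.0476 without GF replicate 5 in the same exact test, and 0.143 without CONV-R replicate 3.

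Among the genes of lipolysis at the luminal surface, the RNA of the anchor was far more abundant in these ECs than that of the lipase. *Gpihbp1* encodes the protein that carries lipoprotein lipase across the EC and holds it there (chromosome 15, 75596628 to 75599481). Its level was 557, 428, 470, 402, 344 and 351 CPM in CONV-R replicates 1 to 6, and 712, 509, 937, 636 and 612 CPM in the GF mice. GF replicate 2 lay below CONV-R replicate 1, while the other GF mice lay above all CONV-R mice. The mean rose from 425 ± 80.0 CPM (SD, n = 6) to 681 ± 160 CPM (SD, n = 5), with a Log2FC of 0.68 ± 0.15 (SE, adjusted p = 0.0115, edgeR's quasi-likelihood test). On the authors' normalized log2 values limma gave a difference of 0.58 and an adjusted p of 0.0742.

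*Lpl*, the gene of lipoprotein lipase (chromosome 8, 68880491 to 68907448), had 24.7, 9.42, 24.9, 9.80, 14.5 and 12.7 CPM in CONV-R replicates 1 to 6 and 19.0, 73.8, 33.5, 50.9 and 126 CPM in the GF mice. GF replicate 1 fell within the CONV-R range, and GF replicate 6 was the highest by a wide margin. The mean rose from 16.0 ± 7.08 CPM (SD, n = 6) to 60.7 ± 42.0 CPM (SD, n = 5). This gave a Log2FC of 1.92 ± 0.39 (SE, adjusted p = 0.00565, edgeR's quasi-likelihood test), or 1.47 without GF replicate 6 (adjusted p = 0.0211 by the same test). On the authors' normalized log2 values the difference was 1.41, with an adjusted p of 0.094 from limma. *Lpl* is also known as a gene of macrophages. GF replicate 6, with the highest *Lpl*, had the highest summed Kupffer cell markers of 931 CPM, and GF replicate 2, next in *Lpl*, had the next highest of 357 CPM. GF replicate 1 had the lowest *Lpl* of the GF mice at a marker sum of 288 CPM, and CONV-R replicates 1 and 3 shared a *Lpl* level near 25 CPM at marker sums of 222 and 87.5 CPM. The part of these cells in the *Lpl* result was not tested.

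**Figure D2:**
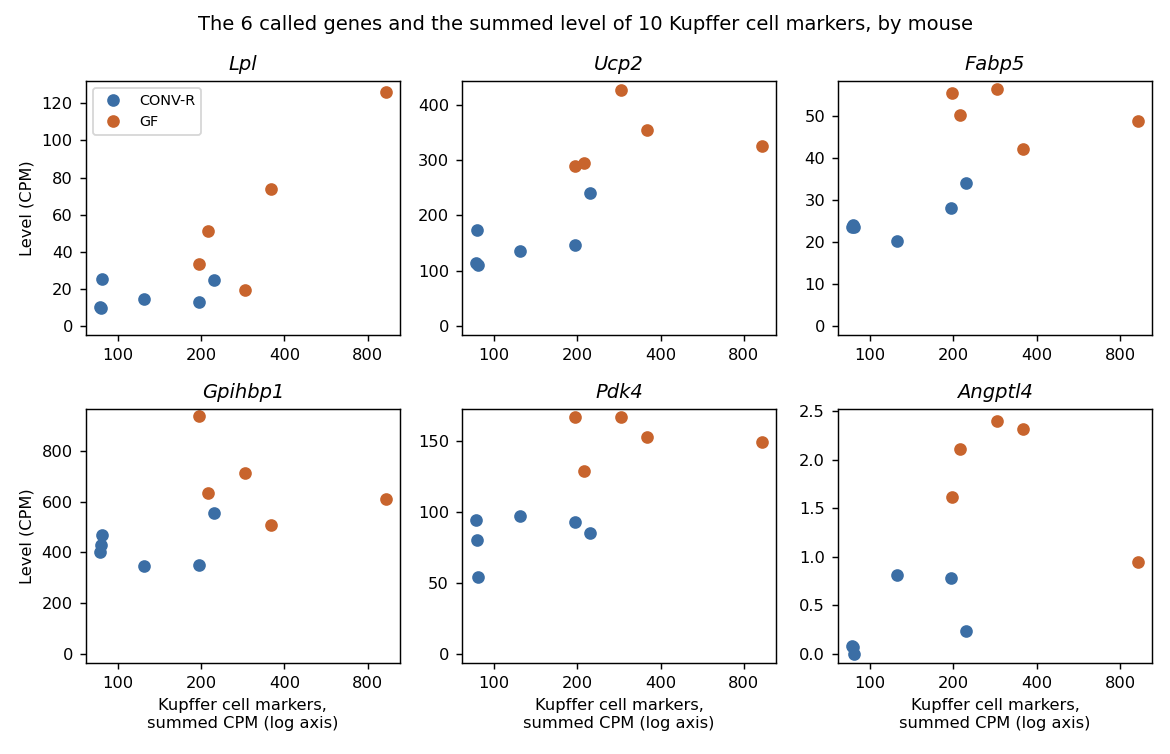
Level in CPM (y axes, linear) of the 6 called genes against the summed CPM of 10 Kupffer cell markers (x axes, log scale), each point a mouse, blue for CONV-R and orange for GF. The GF mouse with the highest marker sum (931 CPM) has the highest *Lpl* (126 CPM) and the lowest *Angptl4* of the GF mice (0.949 CPM), while *Ucp2*, *Fabp5*, *Gpihbp1* and *Pdk4* are highest in other GF mice.

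*Lipg*, the gene of endothelial lipase, which mainly hydrolyses the phospholipids of high-density lipoprotein (chromosome 18, 74939322 to 74961263), was barely detected. Its counts were 2, 1, 0, 2, 2 and 0 in CONV-R replicates 1 to 6 and 1, 6, 3, 3 and 10 in the GF mice, or 7 and 23 counts in all. A count of 0 allows up to 0.368 CPM in CONV-R replicate 3 and 0.233 CPM in CONV-R replicate 6, covering counting error only. Too few counts were present for the test; without the filter the Log2FC was 2.34 (standard error 1.10), with an adjusted p of 0.256 (edgeR, quasi-likelihood test), and DESeq2 gave 0.135. A difference was therefore not detectable at this depth.

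*Angptl4* encodes a secreted inhibitor of lipoprotein lipase that is induced in fasting (chromosome 17, 33773750 to 33781830). It had 3, 1, 0, 1, 10 and 10 counts in CONV-R replicates 1 to 6, or at most 0.808 CPM. The GF mice had 37, 24, 17, 16 and 7 counts, which corresponds to 2.40, 2.32, 1.62, 2.12 and 0.949 CPM. The groups did not overlap, although GF replicate 6 lay close to CONV-R replicates 5 and 6. The mean was 0.327 ± 0.368 CPM (SD, n = 6) in CONV-R and 1.88 ± 0.603 CPM (SD, n = 5) in GF ECs. This gave a Log2FC of 2.46 ± 0.64 (SE, adjusted p = 0.0263, edgeR's quasi-likelihood test). Leaving out CONV-R replicate 2 or 4, or GF replicate 1 or 2, gave adjusted p values by the same test of 0.0551, 0.0594, 0.0645 and 0.0556, with Log2FC values of 2.23, 2.26, 2.35 and 2.38. In the 7 other fits with a mouse left out *Angptl4* stayed called.

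The *Lpl* count relative to that of its anchor and its inhibitor was compared within libraries. The log2 ratio of *Lpl* to *Gpihbp1* was -4.82 ± 0.50 (SD, n = 6) in CONV-R and -3.75 ± 1.27 (SD, n = 5) in GF libraries, a difference of 1.07 (two-sided exact permutation test, p = 0.0952, adjusted 0.143 over 3 ratios). Leaving out GF replicate 1 gave a difference of 1.44 (exact p = 0.0238) and leaving out GF replicate 4 gave 1.34 (exact p = 0.0476), whereas without GF replicate 6 it was 0.71 (exact p = 0.229). The log2 ratio of *Lpl* to *Angptl4* differed by -1.27 (two-sided exact permutation test, p = 0.219, adjusted 0.219). With *Angptl4* at 0 to 3 counts in 4 CONV-R libraries this value rests on the pseudocount of 0.5 counts, and with 2 counts in its place it was -0.59 (exact p = 0.455). Neither ratio was called with all libraries. *Lipg* had too few counts for a ratio test against *Lpl*.

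**Figure D3:**
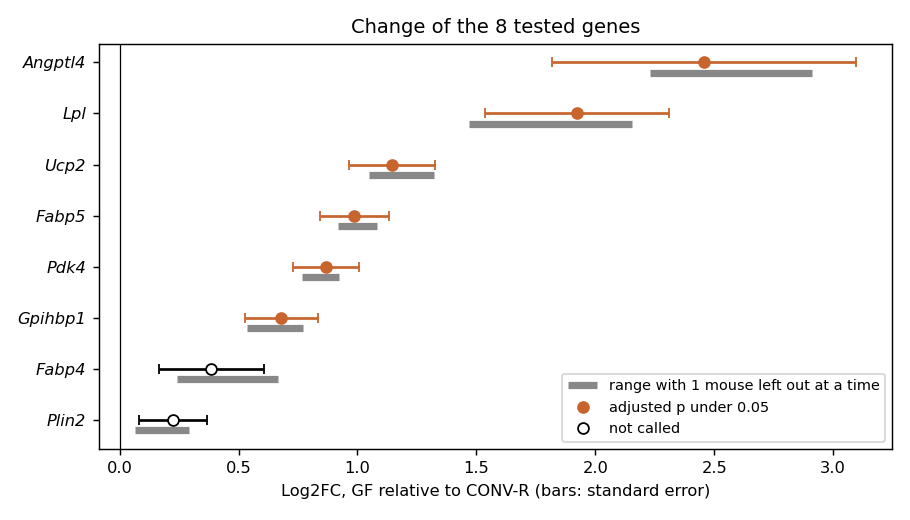
Log2FC of the 8 tested genes in GF relative to CONV-R ECs (x axis), with the standard error as thin bars and, as grey bars, the range of Log2FC when single mice were left out; filled points have an adjusted p under 0.05. All 8 values and all ranges lie above 0, from 0.22 for *Plin2* to 2.46 for *Angptl4*.

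Of the 3 genes that act inside the cell on fuel use and storage, *Pdk4* and *Ucp2* rose and *Plin2* did not pass the test. *Pdk4* encodes the kinase that shuts off pyruvate dehydrogenase and so spares glucose carbon when fatty acids are burned (chromosome 6, 5483351 to 5496309). It had 84.9, 80.0, 54.1, 94.0, 96.8 and 92.8 CPM in CONV-R replicates 1 to 6 and 167, 153, 167, 129 and 149 CPM in the GF mice. The groups did not overlap, and CONV-R replicate 3 was the lowest mouse. The mean rose from 83.8 ± 15.8 CPM (SD, n = 6) to 153 ± 15.6 CPM (SD, n = 5), a Log2FC of 0.87 ± 0.14 (SE, adjusted p = 0.000917, edgeR's quasi-likelihood test). It was 0.77 without CONV-R replicate 3 and 0.88 without GF replicate 6.

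*Ucp2* encodes a mitochondrial inner membrane carrier of the uncoupling protein family (chromosome 7, 100493337 to 100502020). Its level was 242, 174, 110, 113, 136 and 146 CPM in CONV-R replicates 1 to 6 and 428, 356, 290, 295 and 326 CPM in the GF mice. CONV-R replicate 1, the highest of its group, still lay below the lowest GF mouse. The mean rose from 153 ± 49.2 CPM (SD, n = 6) to 339 ± 56.4 CPM (SD, n = 5), with a Log2FC of 1.14 ± 0.18 (SE, adjusted p = 0.000857, edgeR's quasi-likelihood test), which stayed between 1.05 and 1.32 when single mice were left out. *Ucp2* overlaps *Dnajb13*, which lies on the opposite strand, and the counting setting for strand is not stated. *Dnajb13* had 1.91 ± 0.767 CPM (SD, n = 6) in CONV-R and 7.17 ± 2.63 CPM (SD, n = 5) in GF libraries, far below *Ucp2*. *Ucp2* is also expressed by macrophages; it was highest in GF replicate 1, whose Kupffer cell marker sum was 288 CPM, and GF replicate 6 with 931 CPM held 326 CPM. The part of these cells in its values was not tested.

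*Plin2* encodes the coat protein of lipid droplets in most cells other than adipocytes (chromosome 4, 86648386 to 86670060). It had 89.4, 77.4, 64.5, 77.2, 71.6 and 86.8 CPM in CONV-R replicates 1 to 6 and 81.5, 79.4, 129, 73.9 and 90.9 CPM in the GF mice. Apart from GF replicate 4 and GF replicate 6, the GF mice lay within the CONV-R range. The mean was 77.8 ± 9.29 CPM (SD, n = 6) in CONV-R and 90.9 ± 22.1 CPM (SD, n = 5) in GF ECs. This gave a Log2FC of 0.22 ± 0.14 (SE, adjusted p = 0.374, edgeR's quasi-likelihood test), and it was 0.06 without GF replicate 4.

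The sequence just before the gene start was at hand for *Pdk4* and *Ucp2*, which rose, and for *Plin2*, which was not called. It is shown to let the promoters be read beside these values, from RefSeq on GRCm38.p6, in the direction of the gene. The windows searched were the 250 bases before the RefSeq start. GENCODE places the start further upstream, so that the last 31 bases of the *Pdk4*, 21 of the *Ucp2* and 1 of the *Plin2* window lie inside the gene as positioned above, and these are not printed. Capitals mark matches to CCNCNCCC on either strand, the CACCC box bound by Krueppel-like and Sp factors.
Pdk4, chr6:5496310-5496528, minus strand: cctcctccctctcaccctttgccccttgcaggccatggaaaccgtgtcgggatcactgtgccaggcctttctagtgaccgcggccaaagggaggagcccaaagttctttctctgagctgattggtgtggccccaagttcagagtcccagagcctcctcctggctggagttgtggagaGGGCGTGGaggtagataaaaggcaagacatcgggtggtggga
Ucp2, chr7:100493108-100493336, plus strand: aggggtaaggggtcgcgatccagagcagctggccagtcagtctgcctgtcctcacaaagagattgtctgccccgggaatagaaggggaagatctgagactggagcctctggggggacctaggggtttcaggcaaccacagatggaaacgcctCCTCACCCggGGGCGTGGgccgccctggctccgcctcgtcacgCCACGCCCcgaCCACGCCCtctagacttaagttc
Plin2, chr4:86670061-86670309, minus strand: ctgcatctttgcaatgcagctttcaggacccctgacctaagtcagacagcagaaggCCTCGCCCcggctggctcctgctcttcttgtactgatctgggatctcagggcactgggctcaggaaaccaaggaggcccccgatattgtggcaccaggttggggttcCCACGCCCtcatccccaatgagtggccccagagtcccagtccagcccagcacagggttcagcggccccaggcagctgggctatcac
The box occurred 1 time in the *Pdk4*, 4 times in the *Ucp2* and 2 times in the *Plin2* window, with no overlapping matches, and in 45.9% of the 32851 promoters searched in the same way. The direct repeat to which PPARs bind with RXR, searched as 2 copies of AGGTCA with 1 base between them, was in none of the 3 windows and in 0.0335% of all promoters. Its single element AGGTCA occurred 1 time, in *Plin2*, and in 14.0% of all promoters. AGAACA, the single element of the glucocorticoid receptor site, and CACGTG, the E-box, were in none of the 3 and in 16.1% and 6.02% of all promoters. Each motif was searched on both strands, and AGGTCA lies within the direct repeat. These matches say only which letters are in the window.

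Levels of different genes are compared per kilobase of merged exons. In CONV-R ECs the order was *Gpihbp1* with 166 ± 31.3 CPM per kb (SD, n = 6), *Fabp4* with 59.9 ± 26.4, *Pdk4* with 23.9 ± 4.50, *Plin2* with 22.2 ± 2.65, *Ucp2* with 21.9 ± 7.04, *Fabp5* with 7.17 ± 1.36, *Lpl* with 1.53 ± 0.68, *Angptl4* with 0.0925 ± 0.104 and *Lipg* with 0.0193 ± 0.0167. The values of the mice overlapped between *Pdk4* and *Plin2*, between *Plin2* and *Ucp2*, and between *Angptl4* and *Lipg*, and between no other neighbours. In GF ECs *Ucp2* stood in the third place with 48.5 ± 8.06 CPM per kb (SD, n = 5), ahead of *Pdk4* with 43.6 ± 4.44 and *Plin2* with 25.9 ± 6.29, behind *Gpihbp1* with 267 ± 62.8 and *Fabp4* with 78.2 ± 18.9. There *Fabp4* overlapped *Ucp2*, *Ucp2* overlapped *Pdk4*, *Fabp5* overlapped *Lpl*, and *Angptl4* overlapped *Lipg*. The merged exons of *Fabp4* span 4.49 kb because an annotated transcript retains its introns. With the coding transcript of 0.896 kb as the length, a choice made after the data were seen, *Fabp4* had 299.9 ± 132 CPM per kb (SD, n = 6) in CONV-R and 392 ± 94.9 (SD, n = 5) in GF ECs, against 257 ± 48.4 and 412 ± 97.1 for *Gpihbp1*. *Fabp5* then had 25.9 CPM per kb in CONV-R and 51.4 in GF ECs, and *Lpl* 3.89 and 14.7. With the longest annotated transcript as the length, *Ucp2* stood second in GF ECs with 85.0 CPM per kb, ahead of *Fabp4* with 83.0, and *Pdk4* moved from the third to the fifth place in CONV-R ECs. The order of the 6 most abundant genes thus rests on the length used, whereas *Lpl*, *Angptl4* and *Lipg* held the last places with all 3 lengths.

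Other genes of fatty acid handling were read from the same fit in 6 lists. Of the 14 tested genes of uptake, transport and activation, 2 were called higher and 1 lower in GF, with a median Log2FC of 0.12. *Cd36*, the scavenger receptor that takes up long-chain fatty acids, rose from 873 ± 54.6 CPM (SD, n = 6; 801 to 943) to 1564 ± 342 CPM (SD, n = 5; 1245 to 2118), with no overlap of the groups and a Log2FC of 0.84 (adjusted p = 0.000514, edgeR's quasi-likelihood test). *Cav1*, the caveolar coat protein, had a Log2FC of 0.61 (adjusted p = 0.0264 by the same test), and *Acsl3*, an acyl-CoA synthetase, fell by 0.66 (adjusted p = 0.0327). When single mice were left out *Cd36* was called in 11 of 11 fits, and *Cav1* and *Acsl3* in 5 each. Among the binding proteins beside *Fabp4* and *Fabp5*, *Fabp7* had a Log2FC of 1.53 with an adjusted p of 0.08 (edgeR, quasi-likelihood test), or 0.77 with 0.361 without GF replicate 6, while DESeq2 gave it an adjusted p of 0.0297. *Fabp1* had a Log2FC of -0.37 with an adjusted p of 0.554 in edgeR's test, and *Fabp3* had too few counts.

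Of the 18 tested regulators of endothelial fatty acid transport, 2 were called higher and 1 lower, with a median Log2FC of 0.37. *Angpt2*, a ligand of the TIE2 receptor, had a Log2FC of 0.59 (adjusted p = 0.00958, edgeR's quasi-likelihood test). *Tcf15*, which with MEOX2 drives *Cd36* and *Lpl* in heart capillaries, had 0.765 ± 0.242 CPM (SD, n = 6) in CONV-R and 2.71 ± 2.14 CPM (SD, n = 5) in GF ECs, with overlapping groups and an adjusted p of 0.0416 by the same test. It was called in 2 of 11 fits with a mouse left out, and not without CONV-R replicate 3 (0.0585). *Vegfa* had a Log2FC of -1.06 (adjusted p = 0.00952). Among the receptors, *Pparg* had a Log2FC of 0.94 with an adjusted p of 0.0544, *Ppard* 0.11 with 0.729 and *Rxra* 0.32 with 0.233 in edgeR's quasi-likelihood test. *Rxrb* had 0.54 with 0.0535, and DESeq2 called *Pparg* (adjusted p = 0.0199) and *Rxrb* (0.0246), which edgeR did not.

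Of the 16 tested genes of intravascular lipolysis, 2 were called higher and 2 lower, with a median Log2FC of 0.26. *Sort1*, a sorting receptor of lipase and lipoproteins, had a Log2FC of 0.94 (adjusted p = 0.00173, edgeR's quasi-likelihood test), and *Pcsk5*, a convertase that cleaves lipases and angiopoietin-like proteins, had 1.77 (adjusted p = 0.0132). *Lmf1*, the chaperone by which *Lpl* and *Lipg* products mature, had a Log2FC of 0.31 with an adjusted p of 0.295 by the same test.

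Of the 14 tested lipid droplet and intracellular lipolysis genes, 3 were called higher and none lower, with a median Log2FC of 0.22. These encode lipases: *Pnpla2*, which starts triglyceride breakdown at the droplet, had a Log2FC of 1.5 (39.4 ± 6.61 CPM in CONV-R and 111 ± 56.6 CPM in GF ECs, SD, adjusted p = 0.000694, edgeR's quasi-likelihood test), *Mgll*, which ends it, had 0.54 (adjusted p = 0.00474), and *Lipa*, the lysosomal acid lipase, had 1.08 (adjusted p = 9.24e-06). For none of the 3 did the groups overlap, and each gene was called in 11 of 11 fits with a mouse left out. *Lipa* is a gene the study named from these libraries. By qRT-PCR the authors also reported less *Lipa* RNA in ECs of CONV-R than of GF mice, and in GF mice given the cecal content of CONV-R mice. They saw no change after colonization with *Bacteroides thetaiotaomicron* alone. *Lipe*, the hormone-sensitive lipase, had a Log2FC of 0.55 with an adjusted p of 0.095, and the other coat genes that could be tested, *Plin3* and *Plin4*, had -0.08 and 0.28 with 0.84 and 0.793 by the same test.

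Of the 18 tested PPAR targets of fatty acid oxidation beside the 9 genes, none was called higher (against 4.8% of all tested genes) and 1 lower, *Decr1* with a Log2FC of -0.45 (adjusted p = 0.0298, edgeR's quasi-likelihood test), which was called in 6 of 11 fits with a mouse left out. DESeq2 called 2 of the list higher, *Ech1* (adjusted p = 0.0246) and *Acot1* (0.0372), against 5.98% of all genes it tested. *Ech1*, with an adjusted p of 0.0526 in edgeR's test of all libraries, was called by edgeR without CONV-R replicate 3 (0.0329). The median of this list was 0.07, and *Cpt1a*, the gatekeeper of mitochondrial entry, had 0.30 with an adjusted p of 0.218 in edgeR's test. Of the 14 tested genes around *Pdk4* and *Ucp2*, 1 was called, *Pdk1* with a Log2FC of 0.68 (adjusted p = 0.0116), with a list median of 0.00. *Pdk2* and *Pdk3* had 0.52 and 0.03 with adjusted p values of 0.151 and 0.955 in edgeR's quasi-likelihood test, and *Ucp1* and *Ucp3* had too few counts for it. DESeq2 called *Ucp3* higher (Log2FC 3.53, adjusted p = 0.0423), at means of only 0.621 CPM in GF and 0.0496 CPM in CONV-R ECs.

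**Figure D4:**
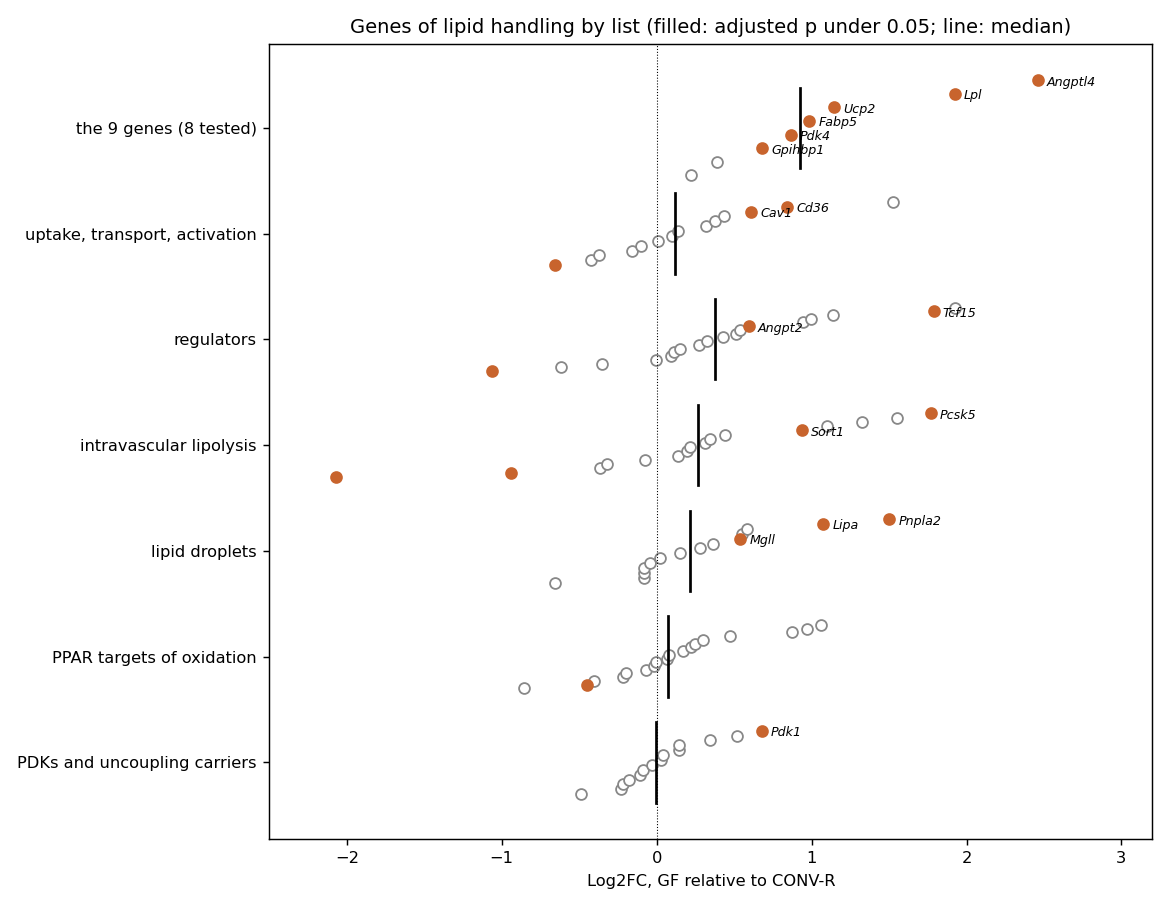
Log2FC in GF relative to CONV-R ECs (x axis) of each tested gene in the set of 9 and in 6 lists of lipid handling; filled points have an adjusted p under 0.05, those higher in GF are named, and the black line is the median of the row. The set of 9 has a median of 0.93 and the list of PPAR targets of oxidation one of 0.07, with no gene called higher in edgeR's test.

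Of the 14 tested markers of continuous capillary and large vessel ECs, 10 had a positive and 4 a negative Log2FC, and the 4 called ones, chosen after their values were seen, were higher in GF. The negative values ran from -0.82 for *Rspo3* to -0.17 for *Plvap*, and none of them was called. *Ly6c1* had a Log2FC of 3.15 (adjusted p = 0.000122, edgeR's quasi-likelihood test) and *Car4*, a carbonic anhydrase that like GPIHBP1 sits on capillaries through a lipid anchor, had 3.19 (adjusted p = 0.00249). *Cd34* had 1.20 (adjusted p = 0.00183) and *Gja4*, a connexin of arterial ECs, had 0.94 (adjusted p = 0.00141). In each of the 4 the groups did not overlap. Their mean levels in GF ECs were 26.2, 4.54, 29.2 and 179 CPM, against 7523 CPM for the sinusoidal marker *Stab2*, and the part of such cells in the results for the 9 genes was not tested.

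Genes whose log2 CPM closely followed each of the 8 once the mean of each group was removed are given as a description over 11 libraries. These libraries differ in depth and in the level of short against long genes, and the part of this in the likeness was not tested. *Fabp4* was followed by *Atp5j* (Pearson r = 0.968), *Rnf7* (0.968) and *Cyb5r1* (0.962), and *Fabp5* by *Gpx1* (0.892) and *Sh3bgrl3* (0.887). *Gpihbp1* was followed by *Ifitm2* (0.963), *Pfn1* (0.958) and *Vegfb* (0.948). For *Lpl* these were *Tmem189* (0.955), *Gucd1* (0.922) and *Pepd* (0.882), and for *Angptl4* they were *2610027K06Rik* (0.919), *Tsga10* (0.911) and *Stk38l* (0.858). *Pdk4* was followed by *Ubxn7* (0.964), *Herpud2* (0.955) and *Trio* (0.943). *Plin2* was followed by *Rgs7bp* (0.922) and *Nr3c1* (0.915). *Ucp2* was followed by *Lmf1* (0.956) and *Flywch1* (0.955). None of the genes named here as alike was called between the groups.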

How the data were processed

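RNA from sorted liver sinusoidal ECs of 6 CONV-R and 5 GF mice was analysed. Reads were trimmed by the authors, aligned to GRCm38 by STAR and assigned to genes by featureCounts, and the raw counts they deposited are not normalized. Another GF library had been removed by the authors for few mapped reads. A second table the authors deposited holds log2 values made comparable between libraries by DESeq, in which weakly counted genes are pulled together. The annotation release is not given in the sources used here. Single-end reads of 50 bases came from amplified cDNA, which can favour short or abundant transcripts.

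Counts were analysed in R 4.3.3 with edgeR 4.0.16 (filterByExpr, TMM normalization, quasi-likelihood test, Benjamini-Hochberg adjustment over 12905 genes, threshold 0.05). Standard errors are the Log2FC divided by the square root of the F statistic. Alternatives were DESeq2 1.42.0, limma 3.58.1 with voom or on the deposited log2 values, other filters and scaling, a block for the replicate number, and each mouse left out. Ratios within a library used a pseudocount of 0.5 counts. Principal components and likeness used log2 CPM with a prior count of 2, and likeness was limited to genes with a mean of at least 10 CPM. Gene positions and lengths came from GENCODE M21. Plots were drawn with matplotlib 3.10.9. The edgeR fit was tested on simulated data. It called 60.6% of the tested genes given a Log2FC of 1 in either direction, and 93.7% of those given a Log2FC of 2. Changes of 1 or less can thus be missed.

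The 9 genes and the lists were chosen with earlier results of these data known. Named genes were the 9, the called genes of each list (at most the 6 with the smallest p), relatives of the 9, markers at the ends of each list, and genes among the 3 most alike for each. Some genes that this rule names are not reported here. The markers *Ly6c1*, *Car4*, *Cd34* and *Gja4* and the receptors, *Clec1b*, *Rspo3*, *Plvap*, *Ech1*, *Acot1*, *Cpt1a* and *Lmf1* were named after their values were seen.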

Additional observations from a re-analysis of the deposited data

Results flagged for a closer look

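In 36 groups of values (the 9 genes and the summed levels of 9 marker lists, each in both groups), 4 held a mouse whose gap to its nearest neighbour was large against the range of the group by Dixon's criterion, where chance gives about 1 in 20. *Fabp4* had 509 CPM in CONV-R replicate 3, against 199 to 234 CPM in the other CONV-R mice. The Kupffer cell markers summed to 931 CPM in GF replicate 6, and the monocyte and neutrophil markers to 229 CPM in the same library. The pan-endothelial and sorting markers summed to 9268 CPM in GF replicate 5, below the other GF libraries.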

How the results depend on the processing

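The Log2FC of the 9 genes kept its sign in all 145 values from other settings, and 137 stayed on the same side of the threshold. The exceptions were *Fabp4*, called without CONV-R replicate 3 (0.67) and with the replicate block, which lacks the same library (0.64), *Gpihbp1* (0.58) and *Lpl* (1.41) on the deposited log2 values, and *Angptl4* in 4 fits with a mouse left out. The number of the 9 genes called was 6, was 4 on the deposited log2 values and ran from 5 to 7 with a mouse left out. It was 5 of the 7 tested with at least 10 counts required in every library, where *Angptl4* was not tested. The number of genes called in the 6 lists was 15, was 21 with DESeq2 and 9 on the deposited log2 values, and ran from 10 to 19 with a mouse left out. The share of all tested genes called in either direction moved as well. It was 7.48% in the main fit, 9.83% with DESeq2, 1.63% on the deposited log2 values and 4.74% to 9.62% with a mouse left out.

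Over all genes, DESeq2 called 1527, of them 598 lower in GF, and limma on the deposited log2 values called 453, of them 323 higher and 130 lower. When single mice were left out, 622 to 1260 genes were called, 413 to 779 higher and 206 to 481 lower. In the same fits the log2 ratio of *Fabp4* to *Fabp5* differed by -0.68 to -0.34, that of *Lpl* to *Gpihbp1* by 0.71 to 1.44 and that of *Lpl* to *Angptl4* by -1.82 to -0.74. With a pseudocount of 2 counts this last difference was -0.59. The cause of these changes was not tested.

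Same-numbered libraries of the groups came from different mice, and the correlations of their deviations from the group means were -0.01 to 0.20. The labels do not say what the number stands for. Whether it marks a shared preparation cannot be decided from these correlations. With a replicate block 1101 genes were called against 931 in the same libraries without it (the fit without CONV-R replicate 3), and 7 of the 9 genes in both fits. The paired ratio tests over 5 same-numbered libraries cannot go below an exact p of 0.0625, which *Fabp4* to *Fabp5* reached. Depth limits what can be said of *Lipg* and *Angptl4*, with 30 and 126 counts in all libraries.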
